A study of Mus musculus with 10 samples.

Results

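The levels of 9 long noncoding RNAs were followed in the mouse left ventricle. Their genes are Malat1, Neat1, Meg3, Rian, Mirg, H19, Miat, Kcnq1ot1 and Gas5. They were chosen by name, most of them as abundant nuclear or imprinted transcripts, and all 9 have a row among the 55385 genes of the deposited count table. Ventricular RNA of mice labelled C56Bl6 was sequenced, with 5 libraries a group. HFpEF mice ate a high-fat diet and were given L-NAME, which blocks nitric oxide synthases, over 6 weeks, while Control mice ate a standard diet over the same 6 weeks. HFpEF stands for heart failure with preserved ejection fraction, which this regimen is used to model. The labels name no further allele or agent in either group, and they leave unsaid whether every library is from its own mouse, so p-values reflect only how these libraries spread. The libraries were made from total RNA after removal of ribosomal RNA, so transcripts without a poly(A) tail were also counted.

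Long noncoding RNAs are transcripts that act, where they act, without being translated. Malat1 and Neat1 are made in the nucleus from neighbouring genes and stay there, Malat1 in nuclear speckles, where splicing factors gather, and Neat1 as the scaffold of paraspeckles, bodies that hold RNA-binding proteins and some RNAs. Meg3, Rian, Mirg, H19 and Kcnq1ot1 are imprinted: each is expressed from the chromosome inherited from one parent and lies among imprinted protein-coding genes. Gas5 is the spliced host of a row of small nucleolar RNAs (snoRNAs), which guide methylation of ribosomal RNA, and Miat is a long noncoding RNA first named for a link to myocardial infarction in people.

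The positions are those of GENCODE M21 (build GRCm38, mm10). Malat1 (chr19:5795690-5802672) and Neat1 (chr19:5824708-5845478) lie on the minus strand, 22035 bases apart. Meg3 (chr12:109541001-109571726), Rian (chr12:109603940-109661716) and Mirg (chr12:109729764-109749460) follow each other on the plus strand and span 208460 bases together. H19 (chr7:142575529-142578143) and Kcnq1ot1 (chr7:143203458-143296549) lie on the minus strand of chromosome 7, Miat (chr5:112213228-112229395) on the minus strand and Gas5 (chr1:161034422-161038539) on the plus strand. The longest annotated transcripts of Malat1 (6983 bases), Neat1 (20771 bases) and Kcnq1ot1 (93092 bases) each have 1 exon, while the longest of the other 6 have 2 to 12.

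The ends of Malat1 and of the long Neat1 transcript, of 20771 bases, are shown because they set these 2 transcripts apart from ordinary messenger RNAs. The short Neat1 transcript does not have this end. In place of a poly(A) tail, U-rich stretches fold back on an A-rich stretch into a triple helix, and the enzyme RNase P cuts just after it. The letters come from the GENCODE M21 transcripts, written as DNA, at chr19:5795921-5796089 for Malat1 and chr19:5824708-5824817 for Neat1, both on the minus strand. Capitals mark the exact stretches of at least 10 bases that the 2 ends share, TTTCTTTTCCTGA, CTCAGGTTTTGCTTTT and AAAAAGCAAAA.
Malat1: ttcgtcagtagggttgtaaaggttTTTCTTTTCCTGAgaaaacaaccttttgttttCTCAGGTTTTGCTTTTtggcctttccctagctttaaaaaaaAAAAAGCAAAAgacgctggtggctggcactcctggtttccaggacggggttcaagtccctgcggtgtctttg
Neat1: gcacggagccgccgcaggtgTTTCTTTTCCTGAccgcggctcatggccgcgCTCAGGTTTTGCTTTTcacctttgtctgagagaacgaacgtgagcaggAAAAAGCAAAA
The 3 shared stretches stand in the same order in both. In Malat1 the bases after the last stretch are those of a small tRNA-like RNA, and the annotated gene runs on beyond the part shown. Read on the transcript strand with gaps of at most 80 bases, the 3 stretches occurred in this order in 2 of 141767 annotated transcripts, one each of Malat1 and Neat1. The stretches were taken from these 2 ends, so both had to be found. A search for exact letters cannot show whether other transcripts have an end of this type.

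Levels were compared between genes as counts per kilobase of exonic sequence, scaled to the same sum in each library (TPM). Malat1 averaged 2427 ± 273 TPM in HFpEF and 3224 ± 206 TPM in Control (SD, n = 5 each), and Neat1 averaged 73.7 ± 6.13 TPM in HFpEF and 103 ± 12.5 TPM in Control. Over the 10 libraries Malat1 lay between 2191 and 3547 TPM and Neat1 between 67.3 and 116 TPM. Gas5 (4.60 to 6.59 TPM), Kcnq1ot1 (3.82 to 6.32 TPM) and H19 (2.64 to 8.26 TPM) had ranges that overlapped, so their order was not separated from the spread between libraries. Meg3 (1.33 to 1.95 TPM), Rian (0.876 to 1.31 TPM), Mirg (0.148 to 0.227 TPM) and Miat (0 to 0.0370 TPM) followed without overlap between neighbours. By raw counts, not per length, Malat1 was the 11th most counted gene of the table, Neat1 the 43rd and Kcnq1ot1 the 201st.

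Differences between the groups were tested for all genes at once with edgeR's quasi-likelihood test on 18491 genes, with Benjamini-Hochberg adjustment, and a gene was called at an adjusted p below 0.05. Each log2 fold change compares HFpEF with Control and is given with its standard error (SE), and CPM are counts after scaling of each library's size by edgeR's TMM factor. Of the 9 long noncoding RNAs, 8 passed the filter on low counts. Malat1 and Neat1 were lower in HFpEF, none was higher, and 6 were not called. Over all genes tested, 2.09% were called lower in HFpEF, 3.24% higher and 5.33% in either direction. The median log2 fold change of the 8 was -0.15, against -0.01 over all genes tested. In 6.81% of all genes tested the CPM of the groups did not overlap (HFpEF below in 2.93% and above in 3.88%), and 0 of the 9 long noncoding RNAs were among them.

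**Figure D1:**
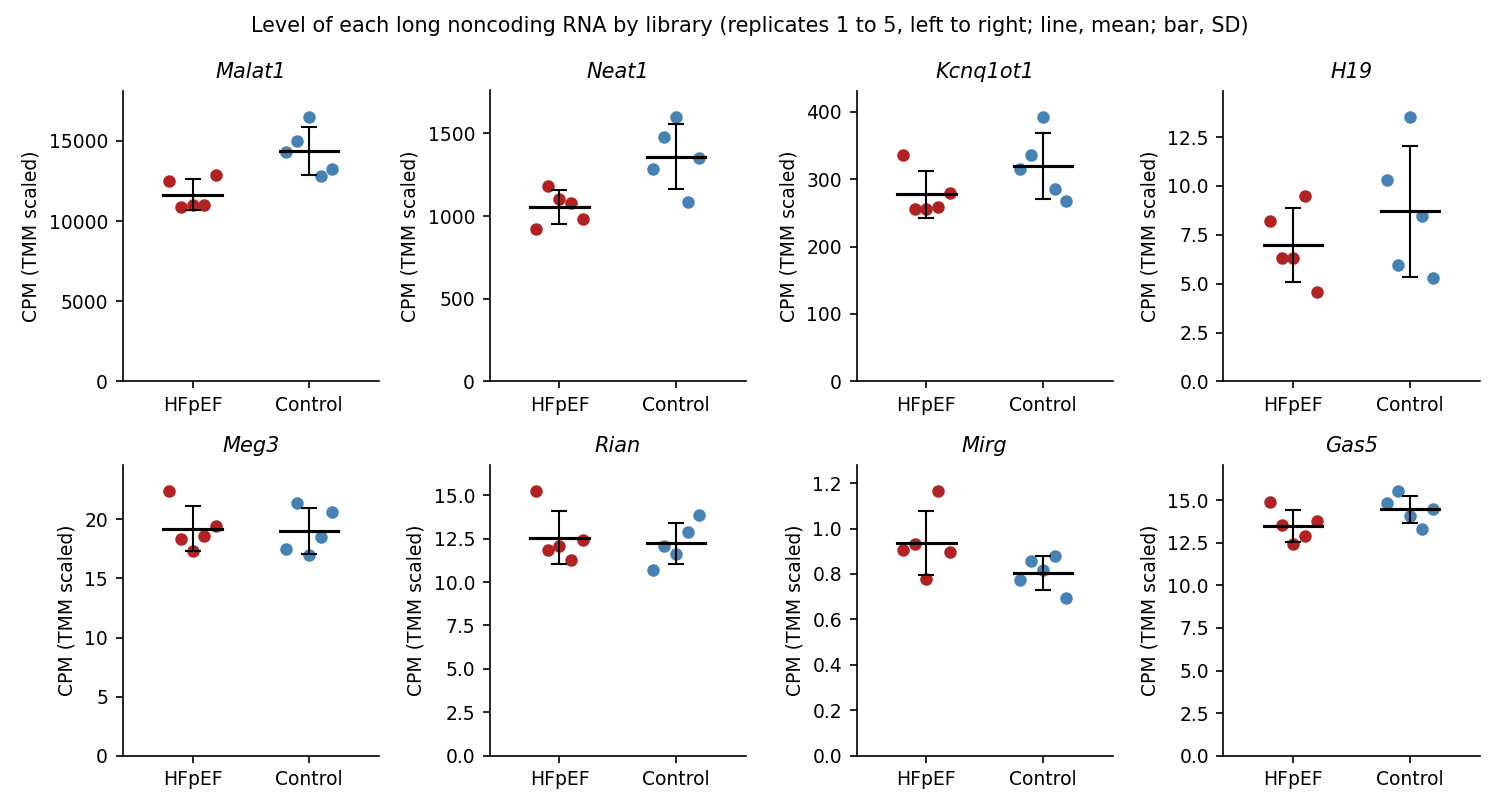
CPM (TMM scaled) of the 8 tested long noncoding RNAs, one panel a gene, each axis starting at 0. Points are libraries, replicates 1 to 5 from left to right, in HFpEF (left) and Control (right), with the mean (line) and SD (bar). Malat1 and Neat1 are lower in HFpEF with slight overlap between the groups, while the other 6 overlap more widely.

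Malat1 had 12507, 10862, 11008, 10990 and 12854 CPM in HFpEF libraries 1 to 5, against 14296, 15021, 16498, 12827 and 13228 CPM in Control libraries 1 to 5. The groups overlapped by 1 pair of libraries, HFpEF 5 lying just above Control 4. The means were 11644 ± 956 CPM in HFpEF and 14374 ± 1470 CPM in Control (SD, n = 5 each), a log2 fold change of -0.30 ± 0.08 (SE; 95% interval -0.47 to -0.14; edgeR adjusted p = 0.0302). As a share of all counts, without any scaling factor, Malat1 took 1.02% to 1.28% in HFpEF and 1.35% to 1.67% in Control, with no overlap (exact permutation test, two-sided, p = 0.00794, the smallest that 252 splits allow; adjusted p = 0.0741 over 28 library measures). Beside it, long intergenic noncoding RNAs other than the 9 took 0.584% of counts in HFpEF and 0.652% in Control on average (exact permutation p = 0.0317, adjusted 0.0889). Antisense RNAs other than the 9 took 0.226% in HFpEF and 0.245% in Control (exact permutation p = 0.0476, adjusted 0.111), small nuclear RNAs 0.348% in HFpEF and 0.411% in Control (exact permutation p = 0.0317, adjusted 0.0889), and the gene model Gm42418 0.0253% in HFpEF and 0.0315% in Control (exact permutation p = 0.0238, adjusted 0.0889). Among the same 28 measures, snoRNA genes (exact permutation p = 0.0714), histone genes (p = 0.429) and gene models of class TEC (p = 0.413) had larger p-values. All these shares are without scaling factors. As TMM-scaled sums the groups overlapped, for long intergenic noncoding RNAs at 5874 to 6165 CPM in HFpEF and 5801 to 6686 CPM in Control. Antisense and small nuclear RNAs also overlapped as such sums. The part of any of these classes in the lower Malat1 share was not tested.

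Neat1 had 925, 1183, 1106, 1082 and 982 CPM in HFpEF libraries 1 to 5, against 1287, 1479, 1600, 1084 and 1351 CPM in Control libraries 1 to 5. Control 4 lay within the range of HFpEF, and the other 4 Control libraries lay above it. The means were 1056 ± 102 CPM in HFpEF and 1360 ± 196 CPM in Control (SD, n = 5 each), and the log2 fold change was -0.37 ± 0.10 (SE; 95% interval -0.57 to -0.16; edgeR adjusted p = 0.0415). Neat1 counts per 100 counts of Malat1 were 9.16 in HFpEF and 9.44 in Control on average (exact permutation test, two-sided, p = 0.706; adjusted p = 0.739 over 28 library measures). The table gives 1 value for the gene, so the short and the long Neat1 transcript, of 3004 and 20771 bases in the annotation, were not separated.

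Both calls lay close to the threshold. When each of the 10 libraries was left out in turn, Malat1 stayed called in 4 fits and Neat1 in 2, with log2 fold changes of -0.34 to -0.25 for Malat1 and -0.43 to -0.30 for Neat1. The Malat1 call ended without Control 1, 2 or 3 or HFpEF 2, 3 or 4 (adjusted p up to 0.0820), and the Neat1 call ended without any 1 library other than Control 4 or HFpEF 2 (adjusted p up to 0.105).

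**Figure D2:**
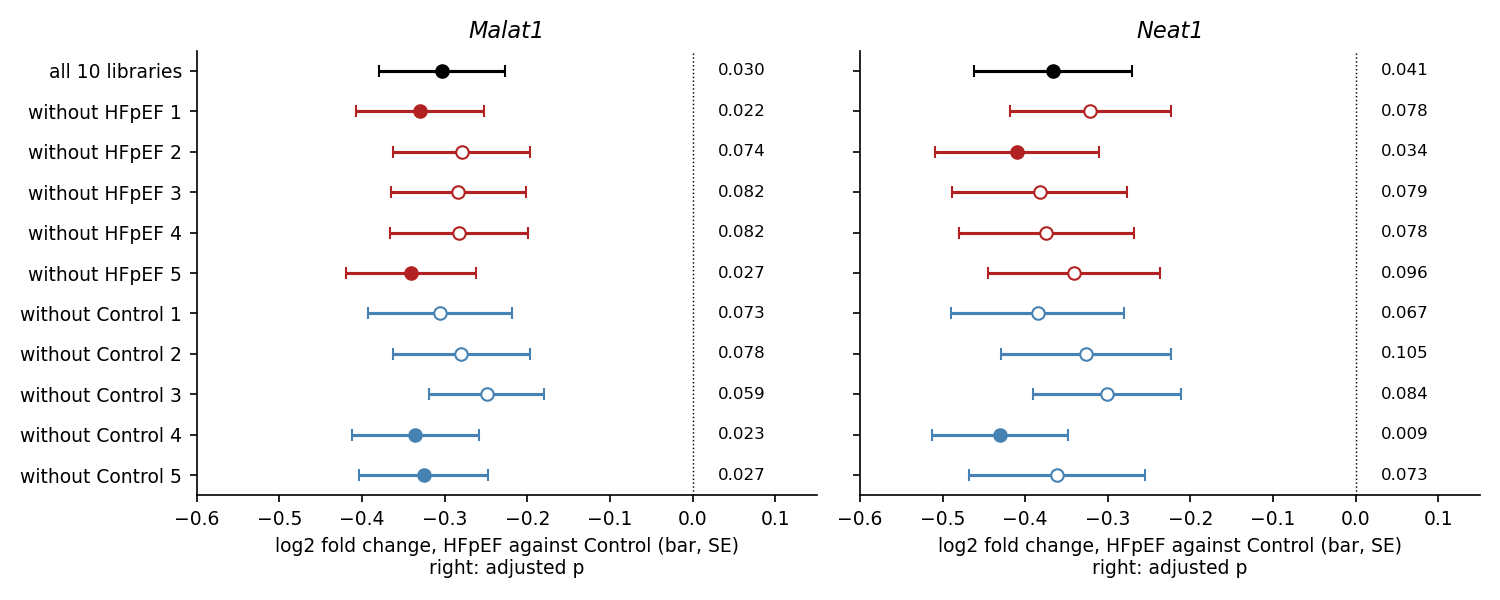
Log2 fold change of Malat1 (left) and Neat1 (right), HFpEF against Control, with its SE, using all 10 libraries and with each library left out. Filled points have an adjusted p below 0.05, open points do not, and the adjusted p stands at the right. Both estimates stay below 0 in every fit, with 4 of 10 calls kept for Malat1 and 2 of 10 for Neat1.

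Kcnq1ot1, an antisense transcript that silences neighbouring genes on the paternal chromosome in mice, was not called. It had 336, 256, 256, 259 and 279 CPM in HFpEF, against 316, 335, 392, 285 and 267 CPM in Control. The groups overlapped, with HFpEF 1 above 4 of the 5 Control libraries. The log2 fold change was -0.20 ± 0.10 (SE; 95% interval -0.43 to 0.02; edgeR adjusted p = 0.302). Without Control 3 it was -0.12. Its span lies wholly within that of Kcnq1, a potassium channel gene on the opposite strand, and the 2 genes share 121 exonic bases. Kcnq1 averaged 18.9 ± 1.89 CPM in HFpEF and 18.3 ± 2.00 CPM in Control (SD, n = 5 each; log2 fold change 0.05 ± 0.08, edgeR adjusted p = 0.806). Counts of Kcnq1ot1 per count of Kcnq1 averaged 14.7 in HFpEF and 17.4 in Control (exact permutation test, two-sided, p = 0.0159; adjusted p = 0.0889 over 28 library measures). The sources used here do not give the strand setting, and without strand, reads of unspliced Kcnq1 RNA and of Kcnq1ot1 cannot be told apart.

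H19, an imprinted RNA that is abundant in the fetus and much reduced after birth, had the widest error of the 8 tested. It had 8.19, 6.29, 6.32, 9.48 and 4.57 CPM in HFpEF, against 10.3, 5.98, 13.5, 8.48 and 5.29 CPM in Control. The groups overlapped over most of their range, and the log2 fold change of -0.31 ± 0.29 (SE; 95% interval -0.97 to 0.35; edgeR adjusted p = 0.615) was about as large as its own error. Without Control 3, the highest library, it was -0.10. Of 22 listed genes around H19 and Kcnq1, 12 were tested and none was called, with a median log2 fold change of 0.03; 1 of them, Nap1l4, a histone chaperone gene, had an unadjusted p below 0.05, and neither DESeq2 nor limma voom called any. Igf2, the growth factor gene that shares enhancers with H19, averaged 26.3 ± 1.75 CPM in HFpEF and 29.5 ± 4.52 CPM in Control (SD, n = 5 each; log2 fold change -0.16 ± 0.10, edgeR adjusted p = 0.381). Another gene model covers 62.8% of the exonic bases of Igf2 on the same strand, so its count is uncertain. Cdkn1c, a cell cycle inhibitor gene silenced by Kcnq1ot1 on the paternal chromosome, had a log2 fold change of -0.16 ± 0.11 (edgeR adjusted p = 0.419).

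Meg3, Rian and Mirg are made from the maternal chromosome of the Dlk1-Dio3 region. Meg3 had 22.4, 18.3, 17.3, 18.6 and 19.5 CPM in HFpEF, against 17.5, 21.4, 17.02, 18.5 and 20.7 CPM in Control. Rian, the host of a cluster of snoRNAs, had 15.2, 11.9, 12.1, 11.2 and 12.4 CPM in HFpEF, against 10.7, 12.1, 11.6, 12.9 and 13.8 CPM in Control. HFpEF 1 was the highest of all libraries for both genes, and the groups otherwise covered the same range. The log2 fold change was 0.01 ± 0.08 for Meg3 (SE; 95% interval -0.15 to 0.18; edgeR adjusted p = 0.946). For Rian it was 0.04 ± 0.09 (SE; 95% interval -0.15 to 0.22; edgeR adjusted p = 0.864). Mirg, the host of a cluster of microRNAs, rested on 24 to 35 counts a library in HFpEF and 26 to 39 in Control. It averaged 0.936 ± 0.141 CPM in HFpEF and 0.805 ± 0.0731 CPM in Control (SD, n = 5 each), with a log2 fold change of 0.22 ± 0.17 (SE; 95% interval -0.14 to 0.58; edgeR adjusted p = 0.50), which was 0.13 without HFpEF 4. Of 10 listed neighbours, 7 were tested and none was called by edgeR, DESeq2 or limma voom, with a median of 0.02. One of them, Slc25a29, a mitochondrial carrier gene, had an unadjusted p below 0.05 (log2 fold change -0.35 ± 0.15, edgeR adjusted p = 0.190). Rtl1, the paternally expressed gene on the strand opposite to Meg3 and Rian, had a log2 fold change of -0.28 ± 0.20 (edgeR adjusted p = 0.473).

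Gas5 had 14.9, 13.5, 12.4, 12.9 and 13.8 CPM in HFpEF, against 14.8, 15.5, 14.1, 13.3 and 14.5 CPM in Control. HFpEF 1 lay within the range of Control and HFpEF 2 to 5 in its lower part or below it. The log2 fold change was -0.10 ± 0.06 (SE; 95% interval -0.23 to 0.04; edgeR adjusted p = 0.422). Miat had 7, 2, 2, 0 and 0 counts in HFpEF, against 1, 3, 0, 1 and 4 counts in Control. With so few counts it did not pass the filter and was not tested.

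Of the genes with a row in the table, the annotation places 62 smaller ones inside the spans of the 9 long noncoding RNAs, among them 23 snoRNA and 22 microRNA genes. None of the 13 snoRNA genes in Rian had a count in any library, and of the 22 microRNA genes only Mir3072, in Mirg, had 1 count in all. Of the 62, 5 were tested. In Neat1, Gm27505 had a log2 fold change of 0.04 ± 0.89 (edgeR adjusted p = 0.991), with 80 counts over the HFpEF libraries and 91 over the Control libraries. In Kcnq1ot1, on the opposite strand, Gm27389 had one of -0.16 ± 0.31 (edgeR adjusted p = 0.822) and Gm27539 one of 0.09 ± 0.29 (edgeR adjusted p = 0.901). Of the 10 snoRNA genes in Gas5, 7 had counts and 2 were tested, Snord47 (chr1:161038082-161038158) and Gm22357 (chr1:161036057-161036139). Their sequences are shown because they are the snoRNAs of this set with enough counts to be tested. They are on the plus strand, from the GENCODE M21 transcripts, with capitals on the letters TGATGA and CTGA of the C and D boxes, the elements that define this class of snoRNA.
Snord47: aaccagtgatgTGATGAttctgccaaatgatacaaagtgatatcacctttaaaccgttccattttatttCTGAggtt
Gm22357: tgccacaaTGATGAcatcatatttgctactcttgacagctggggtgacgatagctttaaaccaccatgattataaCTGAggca
In each, TGATGA stands near the start and CTGA near the end. Snord47 had 9, 3, 8, 9 and 17 counts in HFpEF, against 25, 34, 17, 15 and 25 in Control. The largest HFpEF count equalled the count of 1 Control library, and the groups overlapped. The log2 fold change was -1.06 ± 0.37 (SE; 95% interval -1.85 to -0.27; edgeR adjusted p = 0.113), which was not called. Gm22357 had 57, 40, 53, 55 and 68 counts in HFpEF, against 104, 93, 72, 93 and 81 in Control. These counts are not scaled by library size. As CPM, Gm22357 overlapped between the groups, with Control 5 below every HFpEF library except HFpEF 2. Its log2 fold change was -0.43 ± 0.18 (SE; 95% interval -0.81 to -0.05; edgeR adjusted p = 0.190), also not called. Both lie on bases that the annotation also gives to exons of Gas5, of which 17.8% are shared with such genes, so reads there could be divided between them and Gas5.

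**Figure D3:**
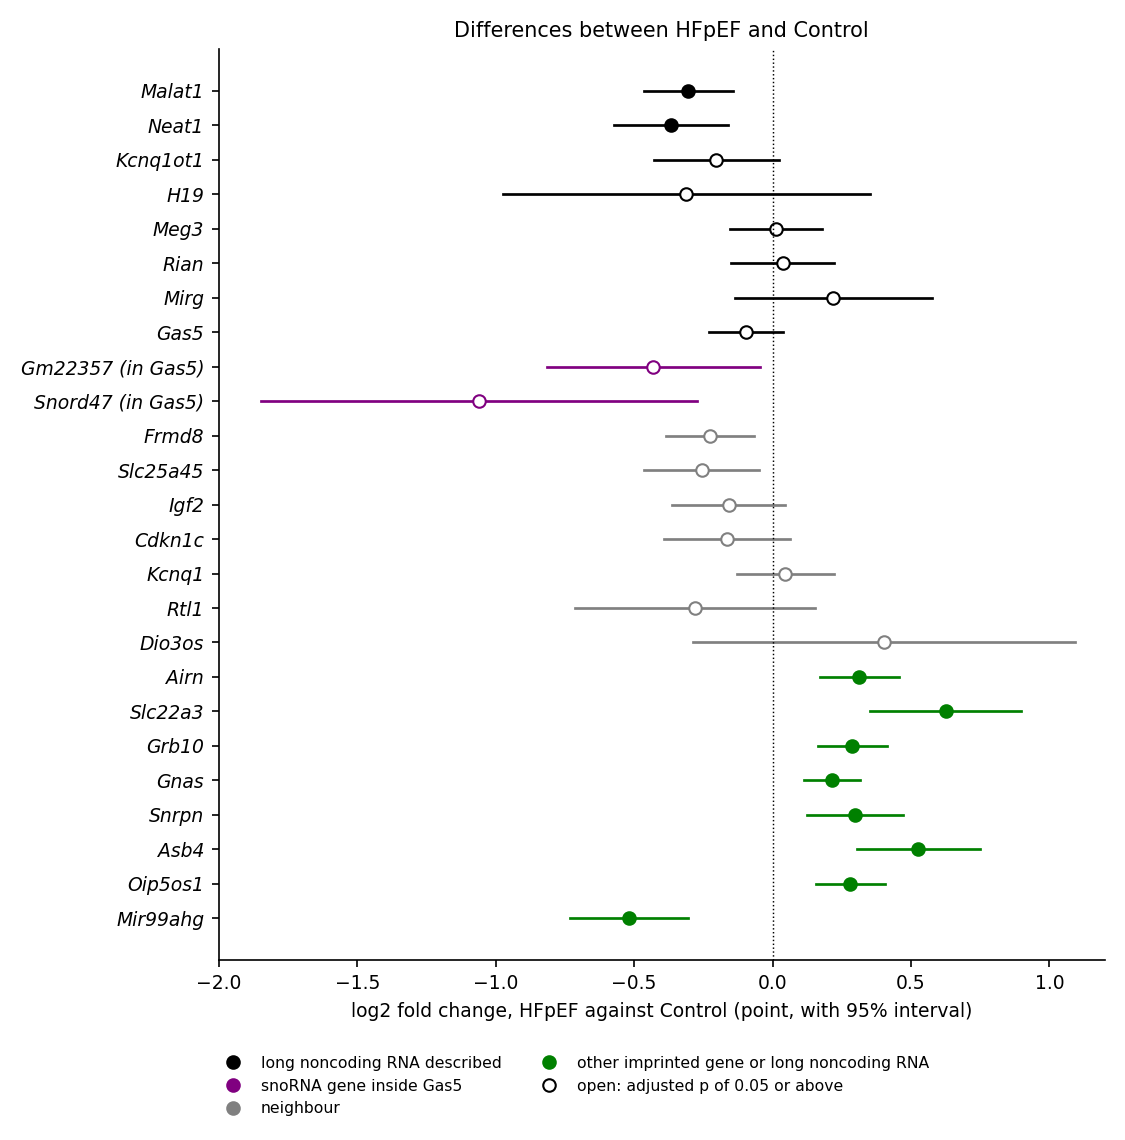
Log2 fold change, HFpEF against Control, with its 95% interval for the 8 tested long noncoding RNAs, 2 snoRNA genes inside Gas5, 7 neighbouring genes, and 8 further imprinted genes or long noncoding RNAs. Filled points have an edgeR adjusted p below 0.05. Malat1, Neat1 and Mir99ahg are filled and below 0, while 6 imprinted genes and Oip5os1 are filled and above 0.

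Promoter windows from RefSeq (build GRCm38.p6), 250 bases before to 50 after the start, were at hand for 7 of the 9 genes, with 2 windows each for Meg3 and Gas5. The search covered 6 motifs on both strands in these windows and in all 32851 windows. TGACGTCA, the cyclic AMP response element, reads the same on both strands and occurs in 1.79% of all windows. One window of Meg3 and one of Gas5 held it. CCAAT occurs in 37.4% of all windows and was found 3 times in that of Kcnq1ot1 and once each in those of Meg3 and Mirg. ACGTG, the core of the hypoxia response element (19.6% of all windows), occurred once in the Malat1 window and 2 times in the Kcnq1ot1 window. AGAACA, a part of the glucocorticoid response element (18.97%), occurred once in that of Rian and 2 times in that of Mirg. TGTTTAC, bound by FoxO factors (3.65%), and CACGTG, an E-box that contains ACGTG (7.15%), were in none of the windows of these genes.
The 3 windows below carry the rarest motif (Meg3 and Gas5) or the most repeated one (Kcnq1ot1). They lie at chr12:109540746-109541045, plus strand (Meg3), chr1:161034916-161035215, plus strand (Gas5) and chr7:143296498-143296797, minus strand (Kcnq1ot1). Capitals mark TGACGTCA in the windows of Meg3 and Gas5 and CCAAT in that of Kcnq1ot1.
Meg3: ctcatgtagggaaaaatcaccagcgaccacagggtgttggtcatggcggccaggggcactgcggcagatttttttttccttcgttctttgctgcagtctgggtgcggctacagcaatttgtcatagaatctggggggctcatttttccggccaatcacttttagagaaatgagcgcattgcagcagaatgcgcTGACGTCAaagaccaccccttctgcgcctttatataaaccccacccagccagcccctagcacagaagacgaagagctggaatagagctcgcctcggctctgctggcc
Gas5: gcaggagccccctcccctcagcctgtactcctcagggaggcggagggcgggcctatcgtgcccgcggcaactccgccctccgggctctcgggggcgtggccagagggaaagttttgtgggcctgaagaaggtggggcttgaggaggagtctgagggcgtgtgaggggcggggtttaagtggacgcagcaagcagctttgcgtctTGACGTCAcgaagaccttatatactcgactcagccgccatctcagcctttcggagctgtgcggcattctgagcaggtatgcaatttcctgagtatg
Kcnq1ot1: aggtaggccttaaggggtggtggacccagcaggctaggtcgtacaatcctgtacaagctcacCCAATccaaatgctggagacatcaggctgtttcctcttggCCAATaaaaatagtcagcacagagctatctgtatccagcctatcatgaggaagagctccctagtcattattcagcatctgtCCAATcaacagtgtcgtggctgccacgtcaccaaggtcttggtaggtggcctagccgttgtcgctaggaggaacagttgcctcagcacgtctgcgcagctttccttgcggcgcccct
A match describes the letters of the window only.

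The long noncoding RNAs were also compared for how they varied between libraries of the same group, as log2 CPM minus the group mean over 10 libraries. Of 28 pairs, Malat1 and Kcnq1ot1 varied most closely together (Pearson's r = 0.88, exact permutation p = 0.00236, adjusted 0.0661; Spearman's rho = 0.92, exact permutation p = 0.00326, adjusted 0.0914). Without the 2 libraries farthest from the median of Malat1, Control 3 and HFpEF 2, r was 0.79. Control 3 and HFpEF 1 were high for both genes, and Control 4 and 5 were low for both. Meg3 and Rian had r = 0.75 (exact permutation p = 0.0294, adjusted 0.275) and rho = 0.72 (exact permutation p = 0.0351, adjusted 0.492), and r = 0.74 without HFpEF 1 and Control 2. Meg3 and Gas5, on different chromosomes, had r = 0.73 (exact permutation p = 0.0279, adjusted 0.275) and rho = 0.64 (exact permutation p = 0.0673, adjusted 0.554), and r = 0.31 without HFpEF 1 and Control 2, so the relation rests on those libraries. Malat1 and its neighbour Neat1 had r = 0.26 (exact permutation p = 0.525, adjusted 0.987) and rho = 0.21 (exact permutation p = 0.605, adjusted 0.909), and r = 0.07 without Control 3 and HFpEF 2. No pair passed the adjustment.
HFpEF 1 and 5 were the highest HFpEF libraries for Malat1 and the lowest for Neat1, while Control 3 was the highest Control library for both and Control 4 the lowest for both. Within HFpEF alone the r of Malat1 and Neat1 was -0.90, and within Control alone it was 0.88. Each of these rests on 5 libraries and was not tested.

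**Figure D4:**
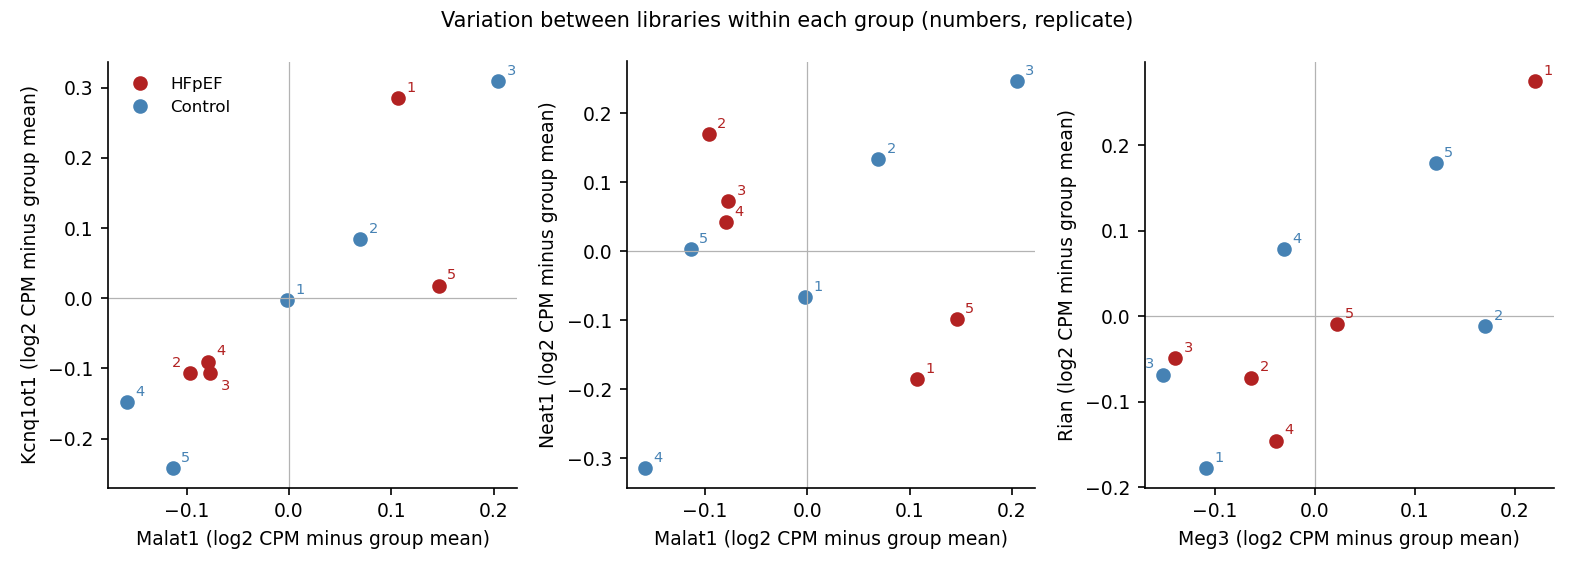
Deviation of each library from its group mean in log2 CPM, HFpEF and Control in separate colours, with the replicate number. Kcnq1ot1 against Malat1 (left) rises along a line, and Rian against Meg3 (right) rises with more scatter. Neat1 against Malat1 (middle) falls in HFpEF and rises in Control.

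For each long noncoding RNA, the 3 genes of mean log2 CPM of at least 3 that varied most like it over the 10 libraries were taken by the same measure. They are given as a description, since libraries share depth and scaling. Taking the highest r of many genes over 10 libraries also gives large values by selection alone. For Malat1 they were Clk1 (r = 0.97), a kinase that phosphorylates splicing factors, Paxbp1 (r = 0.97) and Srsf11 (r = 0.96), a splicing factor gene. None of these 3 was called between the groups (edgeR log2 fold changes -0.03, -0.10 and 0.08). For Kcnq1ot1 they were Ric1, Spopl and Ints6l (r = 0.98 each). For Neat1 they were Hint2 (r = 0.89), Ube4a and Wwtr1 (r = 0.86 each). Hint2, a mitochondrial hydrolase gene, was itself lower in HFpEF (log2 fold change -0.34 ± 0.05, edgeR adjusted p = 0.00191).
For Meg3 they were Abca6 (r = 0.94), Jade1 (r = 0.92) and Efemp1 (r = 0.91). Efemp1 was higher in HFpEF (log2 fold change 0.43 ± 0.12, edgeR adjusted p = 0.0478), though Meg3 was not called. For Rian they were Fbln1 (r = 0.92), the gene of the matrix protein fibulin, Hsd11b1 (r = 0.85) and Zfp971 (r = 0.84). The closest genes to Mirg were Gpr137b-ps, Stk25 and Wnk4 (r = 0.89 to 0.92), to H19 Hinfp, Taok2 and Tle2 (r = 0.90 to 0.91), and to Gas5 Ezr, Hnrnpk and Rarg (r = 0.93 to 0.95). Wnk4 was lower in HFpEF (log2 fold change -0.55 ± 0.07, edgeR adjusted p = 0.000618), while Mirg lay above 0 and was not called.

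The partners of these RNAs were counted from lists. Of 34 genes for paraspeckle proteins, all tested, none was called by edgeR, DESeq2 or limma voom; 4 had an unadjusted p below 0.05 (the smallest for Ahdc1, log2 fold change 0.12 ± 0.05, edgeR adjusted p = 0.173), and the median log2 fold change was -0.00262 (summed level 1634 to 1740 CPM in HFpEF and 1631 to 1709 CPM in Control). Of 36 genes for nuclear speckle proteins and splicing factors, all tested, none was called by any of the 3 tools, 1 had an unadjusted p below 0.05 (U2af2, a gene of a factor that binds the 3′ splice site, log2 fold change -0.10 ± 0.05, edgeR adjusted p = 0.243), and the median was 0.00029. Of 17 tested snoRNA host transcripts other than Gas5, none was called by edgeR, and the median was -0.05. DESeq2 and limma voom, counted over 16 of them, called none. By edgeR 3 had an unadjusted p below 0.05, all of them above 0 (the smallest for Snhg3, log2 fold change 0.30 ± 0.12, edgeR adjusted p = 0.15). In the annotation 71.5% of the exonic bases of Snhg3 are shared with a gene on the opposite strand. Of 14 genes of nonsense-mediated decay, the pathway that degrades spliced Gas5, none was called by the 3 tools and 1 had an unadjusted p below 0.05, the kinase gene Smg1 (log2 fold change 0.17 ± 0.06, edgeR adjusted p = 0.126). Of 10 genes around Malat1 and Neat1, none was called by the 3 tools and 2 had an unadjusted p below 0.05, Frmd8 (log2 fold change -0.23 ± 0.08, edgeR adjusted p = 0.0967) and Slc25a45 (-0.26 ± 0.10, edgeR adjusted p = 0.15), with a median of -0.04.

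Gas5 can bind the glucocorticoid receptor in human cells in place of its DNA element. Of 15 genes for the receptor and its targets, 1 rose and 1 fell, with a median of 0.21, and 1 to 5 were called over the alternative fits. At an unadjusted p below 0.05 there were 7, of which 6 were higher and 1 lower. DESeq2 called 4 (3 higher) and limma voom 3 (2 higher). Without the low count filter, and also without Control 2, only 1 was called, and it was higher. Zbtb16, a transcriptional repressor gene, averaged 190.5 ± 25.2 CPM in HFpEF and 125 ± 10.3 CPM in Control (SD, n = 5 each; log2 fold change 0.61 ± 0.08, edgeR adjusted p = 0.000931). Mt2, a metallothionein gene, averaged 2.20 ± 0.650 CPM in HFpEF and 6.74 ± 3.09 CPM in Control (SD, n = 5 each; log2 fold change -1.63 ± 0.35, edgeR adjusted p = 0.0290), and 73.5% of its exonic bases are shared with a gene on the opposite strand.

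Among imprinted genes outside the regions above, 6 of 33 tested rose and none fell in the main fit, and the median was 0.09. At an unadjusted p below 0.05 there were 14, of which 11 were higher and 3 lower. Over the alternative fits 4 to 7 were called, in some fits not all of them higher. DESeq2 called 7 (6 higher), limma voom 6 (5 higher) and library totals without factors 5 (2 higher). Asb4, a gene of a ubiquitin ligase subunit, averaged 4.26 ± 0.343 CPM in HFpEF and 2.95 ± 0.359 CPM in Control (SD, n = 5 each; log2 fold change 0.53 ± 0.10, edgeR adjusted p = 0.00930). Grb10, an adaptor that restrains insulin and growth factor signalling, averaged 75.0 ± 6.00 CPM in HFpEF and 61.4 ± 2.83 CPM in Control (log2 fold change 0.29 ± 0.06, edgeR adjusted p = 0.0100). Slc22a3, an organic cation transporter gene, averaged 6.49 ± 0.574 CPM in HFpEF and 4.18 ± 0.894 CPM in Control (log2 fold change 0.62 ± 0.13, edgeR adjusted p = 0.0107). Airn, an imprinted long noncoding RNA that runs antisense to Igf2r and silences Slc22a3 in the mouse placenta, averaged 47.0 ± 2.12 CPM in HFpEF and 37.9 ± 4.12 CPM in Control (log2 fold change 0.31 ± 0.07, edgeR adjusted p = 0.0134). Igf2r itself had a log2 fold change of 0.14 ± 0.06 (edgeR adjusted p = 0.184), and without strand, reads of unspliced Igf2r RNA and of Airn cannot be told apart. Gnas and Snrpn, named after their values were seen, rose by 0.21 and 0.30 on the log2 scale.

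Of 23 other long noncoding RNAs tested, 1 rose and 1 fell, with a median of -0.05, and 2 to 4 were called over the alternative fits. The share called was 8.70%, against 5.33% of all genes tested. At an unadjusted p below 0.05 there were 7, of which 3 were higher and 4 lower. DESeq2 called 3 (1 higher) and limma voom 2 (1 higher). Oip5os1, known as Cyrano, averaged 369 ± 22.8 CPM in HFpEF and 303 ± 21.2 CPM in Control (SD, n = 5 each; log2 fold change 0.28 ± 0.06, edgeR adjusted p = 0.0118). Mir99ahg, a microRNA host gene, averaged 23.3 ± 3.39 CPM in HFpEF and 33.4 ± 3.74 CPM in Control (SD, n = 5 each; log2 fold change -0.52 ± 0.10, edgeR adjusted p = 0.00967). Of 10 tested genes on a list of RNAs without a poly(A) tail, 1 was called, Rpp40, a protein-coding gene that should not stand on that list. Rn7sk, a small nuclear RNA that holds back transcription elongation, averaged 9129 ± 785 CPM in HFpEF and 8197 ± 594 CPM in Control (SD, n = 5 each; log2 fold change 0.16 ± 0.07, edgeR adjusted p = 0.220).

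**Figure D5:**
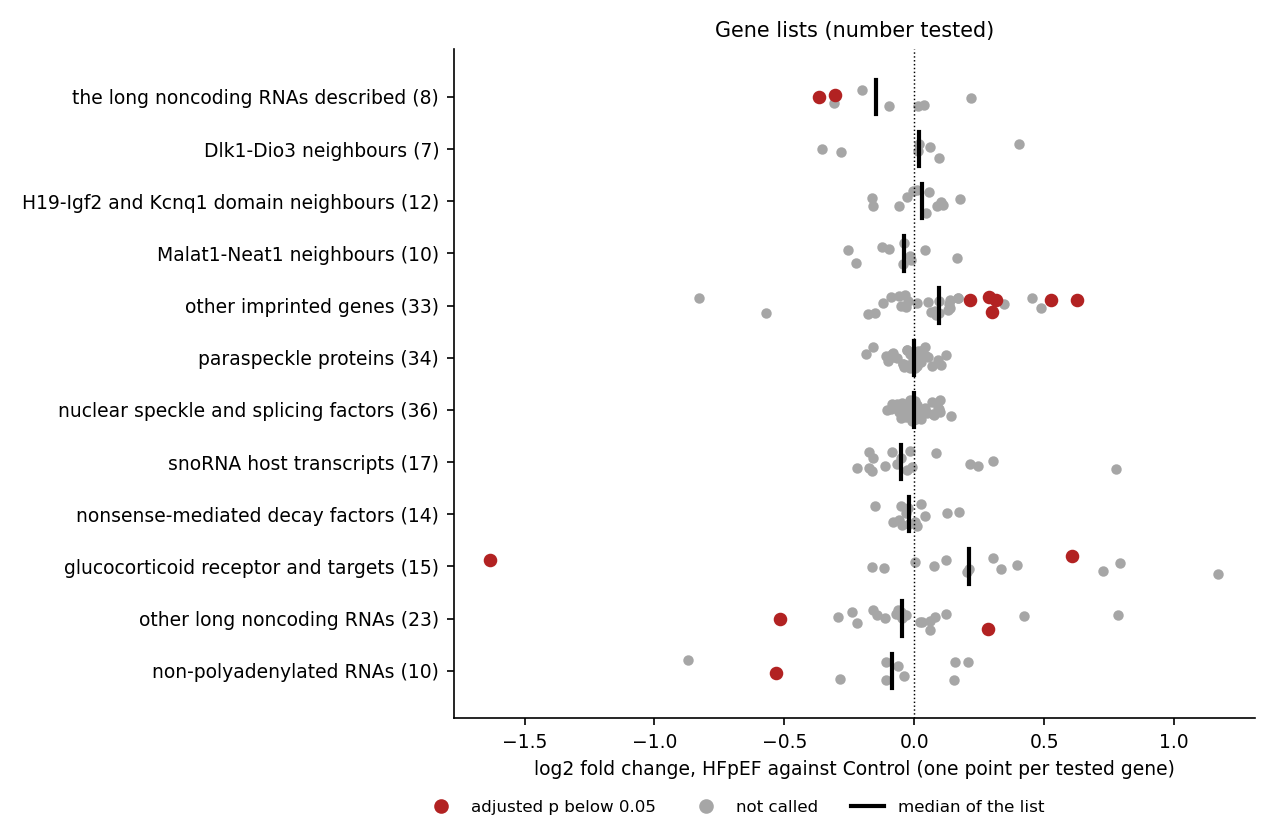
Log2 fold change, HFpEF against Control, of every tested gene of the lists, one row a list with the number tested, called genes in red, and the list's median as a bar. The medians lie near 0 for the neighbours, paraspeckle and splicing lists, at 0.09 for the other imprinted genes and at 0.21 for the glucocorticoid receptor and its targets.

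The libraries held 31286355 to 33604554 counts in HFpEF and 31555001 to 46108710 in Control, a difference with p = 0.222 in a two-sided exact permutation test. Mitochondrial transcripts took 37.6% of counts in HFpEF and 35.7% in Control on average (exact permutation test, two-sided, p = 0.0635). TMM factors averaged 0.966 in HFpEF and 1.04 in Control (exact permutation test, two-sided, p = 0.0238; adjusted p = 0.0889 over 28 library measures). Without them the median log2 fold change of all genes tested was -0.11, and Malat1 and Neat1 stayed lower. Markers of heart muscle cells were the most abundant of the cell type lists, as the left ventricle label implies, and 1 of 10, the troponin gene Tnnt2, was lower in HFpEF (log2 fold change -0.22 ± 0.05, edgeR adjusted p = 0.0184; not called with the replicate block or without Control 1, HFpEF 2 or HFpEF 4). Of 5 atrial myocyte markers 2 were tested, and Nppa, the atrial natriuretic peptide gene, was lower in HFpEF (log2 fold change -1.19 ± 0.22, edgeR adjusted p = 0.0187; not called with the replicate block or without Control 4 and 5 together), while Myl4 was at -0.11. The summed level of the 5 was 15.3 to 29.3 CPM in HFpEF and 37.3 to 58.3 CPM in Control, without overlap. In the annotation 61.5% of the exonic bases of Nppa, which is part of that sum, are shared with a gene on the opposite strand, so its count is uncertain. Of 7 skeletal muscle markers Acta1 was tested, at -0.77 ± 0.52 (edgeR adjusted p = 0.460). Of 10 endothelial markers, 2 were lower in HFpEF, Egfl7 and Emcn, with a median of -0.13 and a summed level of 1100 to 1304 CPM in HFpEF and 1178 to 1379 CPM in Control. DESeq2 called 3 of them and limma voom 1, and edgeR called none without Control 1, HFpEF 3 or HFpEF 4. All 9 macrophage markers lay below 0 with a median of -0.32, none called by edgeR, 3 by DESeq2, 1 by limma voom and 5 at an unadjusted p below 0.05. Their summed level was 110 to 149 CPM in HFpEF and 137 to 226 CPM in Control. The median lay above 0 for fibroblast (0.09), smooth muscle and pericyte (0.095), Schwann cell (0.31), erythroid (0.19) and mesothelial (0.14) markers. None of these was called by edgeR. At an unadjusted p below 0.05 lay 2 fibroblast, 1 smooth muscle or pericyte and 2 Schwann cell markers, all above 0. For the 3 lymphocyte markers tested the median was -0.03, with none called. The part of any of these cell types in the lower Malat1 and Neat1 was not tested, and in bulk tissue fewer cells of a type and less RNA per cell cannot be told apart.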

How the data were processed

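Values are expected counts per gene, deposited by the authors and not normalized. Per the submitters' processing notes, Bowtie2 2.1.0, RSEM 1.2.15 and build mm10 were used, without their role. All deposited values were whole numbers. The 92 spike-in rows (ERCC) had 0 counts and were left out. Annotation release and strand setting: not given in the sources used here. GENCODE M21 matched 55144 of 55385 genes by identifier, and gave positions, biotypes and lengths. TPM were computed from the counts and the exonic length of each gene.

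Genes were filtered with filterByExpr (minimum count 10), scaled with TMM and fitted with edgeR 4.0.16 (R 4.3.3) with robust quasi-likelihood and group as the sole term, on all 10 libraries. SEs follow from each fold change and F statistic; intervals are 95%. CPM correlations used log2(CPM + 0.5). Exact permutation tests used 252 splits for library measures and 14400 permutations within groups for correlations. The fit was tested on simulated data. DESeq2 1.42.0, limma 3.58.1 (voom), other scalings, filters and left-out libraries were alternatives.

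The genes described and all lists were chosen with earlier results of these data known, and so were the tests. Named genes are the 9 long noncoding RNAs, their neighbours, per list up to 4 called genes or the one with the smallest p, and the 3 most alike in variation, leaving out unnamed gene models there. Gene models inside a long noncoding RNA, the 28 library measures and the exon classes were chosen after values were seen. No 2 libraries of one group agreed within sampling noise (chi-square of counts), so none was taken for a library deposited more than once; this does not show that they came from separate mice.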

Additional observations from a re-analysis of the deposited data

Results flagged for a closer look

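The Kcnq1ot1 level of HFpEF 1, 336 CPM, stood apart from the other 4 HFpEF libraries, which lay between 256 and 279 CPM. Its gap to the nearest of them was 0.710385 of the group's range, just over Dixon's critical value of 0.71 for 5 libraries. It was the only such case among 22 groups of values examined, and chance alone flags about 1 in 20. The same library had the highest Meg3 and Rian levels of all 10.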

How the results depend on the processing

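Malat1 and Neat1 stayed below 0 in all 22 alternatives, called in 15 for Malat1 (-0.40 to -0.25) and in 13 for Neat1 (-0.47 to -0.30). DESeq2, limma voom, and the fit without Control 4 and 5 together, chosen after seeing the data because they had the highest totals, called both. Without the low count filter Neat1 was at -0.36 (edgeR adjusted p = 0.118) and 1 long noncoding RNA was called. The cause was not tested. Leaving out 1 library gave 0 to 2 called long noncoding RNAs, and 554 to 1101 genes called in all, against 985 with all libraries. Library totals without factors gave 1523 called genes, 246 of them higher, and moved Meg3 to -0.086, Rian to -0.064 and Kcnq1 to -0.050, since they shift all genes down. With 1 library left out, Malat1 ran from -0.34 to -0.25, Neat1 from -0.43 to -0.30, Meg3 from -0.047 to 0.065, Rian from -0.042 to 0.094, Kcnq1 from -0.0089 to 0.10, Kcnq1ot1 from -0.28 to -0.12, H19 from -0.45 to -0.10, Mirg from 0.13 to 0.28 and Gas5 from -0.13 to -0.06. Kcnq1 was at -0.030 without Control 4 and 5. Igf2 was called without Control 5 (-0.24, edgeR adjusted p = 0.0482), and was at -0.09 without Control 3 (edgeR adjusted p = 0.640). The correlation of Malat1 and Kcnq1ot1 passed the adjustment without factors (r = 0.89, adjusted permutation p = 0.0272), and that of Neat1 and Kcnq1ot1 was -0.63 without its 2 farthest libraries, against 0.18.

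Deviations of libraries with the same replicate number correlated between -0.27 and 0.21, and 1 of 5 correlated best with its own number. The numbers were therefore not taken as pairs, though so few values cannot show that no pairing exists. With the replicate number as a block, Malat1 was at -0.30 (edgeR adjusted p = 0.0644), Neat1 stayed called, 1 long noncoding RNA was called in all, and 744 genes were called. Miat could not be tested under the main filter, nor Mirg and Snord47 at a minimum count of 50. Mirg, Miat and the snoRNA genes are limited by low counts.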

Other observations

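Long noncoding RNA genes other than the 9 described were grouped by exons, a grouping chosen after values were seen. Of 1693 tested genes whose transcripts have 1 exon, 28 were higher and 16 lower in HFpEF (median log2 fold change -0.04). Of 1725 spliced ones, 17 were higher and 28 lower (median -0.05). The shares called were 2.60% and 2.61%, against 5.33% of all genes tested. At a mean log2 CPM of at least 3, 11 of 154 genes with 1 exon were higher and 5 lower (median 0.01). Of 112 spliced ones at that level, 4 were higher and 5 lower (median -0.007). Inside the span of Kcnq1ot1, the gene model Gm27803 had 7, 0, 9, 6 and 10 counts in HFpEF, against 6, 2, 0, 1 and 1 in Control. It was below the filter and was not tested.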
